A study of Arabidopsis thaliana with 6 samples.

Results

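The genes described here are those whose transcript level was higher on each successive day of soil drought in unopened flower buds of Arabidopsis thaliana. A gene was taken when its mean log2 level on day 4 exceeded that on day 3 by at least 0.5 and its mean on day 5 exceeded that on day 4 by at least 0.5. Of 13513 probe sets named with exactly 1 gene, 50 met both thresholds. By the rule, 9 of the 50 were set aside by name or symbol prefix, among them the linker histone gene HIS1-3, the clock gene GI and several late embryogenesis abundant genes. The rule leaves out every symbol starting with CYP or GSTU, so the absence of such cytochrome P450 and tau glutathione transferase genes is not a result. The other 41, each measured by its own probe set, are the members. Because the values of all 6 arrays chose them, their increases are given as a description, and where the text says which of them passed a test, that is a count or a label of precision and supports nothing.

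All buds came from the dreb1a mutant line (CS872453) in the Col-0 ecotype, so every group carried the same mutation in DREB1A, the gene of a transcription factor of cold and drought responses. Water was withheld after 24 days of growth, when the main stem stood about 1 cm high, and about 80 hours later, on day 3, the soil held near 35% of its water capacity and was kept there by watering. Sampling fell on days 3, 4 and 5, when the plants were 28, 29 and 30 days old, with 2 samples a day and 1 Affymetrix ATH1 array per sample. The age of the plants therefore moved with the day, and its share cannot be told apart from that of the time spent in dry soil. Wild-type or well-watered buds and the DREB1A transcript itself were not analysed here. The labels do not say that the 2 samples of a day came from separate plants, so the spread between them may be technical.

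In a plant that loses water, abscisic acid accumulates and switches on genes for water-binding proteins, membrane protection, transporters that move solutes into the vacuole, and regulators of the response itself. Prolonged shortage also brings protein breakdown, in which vacuolar proteases release amino acids, and sugar and nitrogen are moved out of ageing tissue. Flower buds are strong sinks that keep importing sugar while the rest of the shoot is short of water.

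Values are log2 levels as the authors deposited them, so a difference of 1 is a 2-fold change, and a level of about 3.66, the mean of 3 control probe sets for the bacterial trp gene, marks the dim end of the arrays. The 6 arrays resembled each other closely, with a median difference between the replicates of a day of 0.10 to 0.13. Relative to the arrays as a whole, the 24 poly-A control probe sets averaged 0.55 higher on day 5 than on day 4 and 0.06 lower on day 4 than on day 3. Scaling the arrays to them takes about that much off every second step, and it left 3.14% of all probe sets called higher and 76.8% called lower on day 5 than on day 3, against 13.2% and 15.7% without it. Among markers of the sampled tissue, the tapetum gene A9 (AT5G07230) and the tapetum regulator gene AMS stood between 11.31 and 11.86 and between 8.81 and 9.61 over the 6 arrays. The meristem gene CLV3 stood between 3.83 and 4.33, close to the dim end.

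Over the 41 members the median difference of the first step, day 4 minus day 3, was 0.70 and that of the second step, day 5 minus day 4, was 0.84. Over all 22746 tested probe sets those medians were 0.02 and -0.05. From day 3 to day 5 the members' differences lay between 1.02 and 3.44, with a median of 1.59, and 13 of the 41 were at least 4-fold higher on day 5. No member had overlapping samples between neighbouring days, a pattern shared by 6.65% of all tested probe sets. In limma, 36 members passed an adjusted p of 0.05 on the first step, where 2.48% of all probe sets were called higher, and 40 passed on the second, where 10.5% were. From day 3 to day 5 all 41 passed, against 13.2% of all probe sets. The members were chosen on these same contrasts, so nothing is read from these counts. On the first step the count dropped to 12 when replicate 1 of day 3 was left out, to 21 when its replicate 2 was, and to 18 when replicate 2 of day 4 was.

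**Figure D1:**
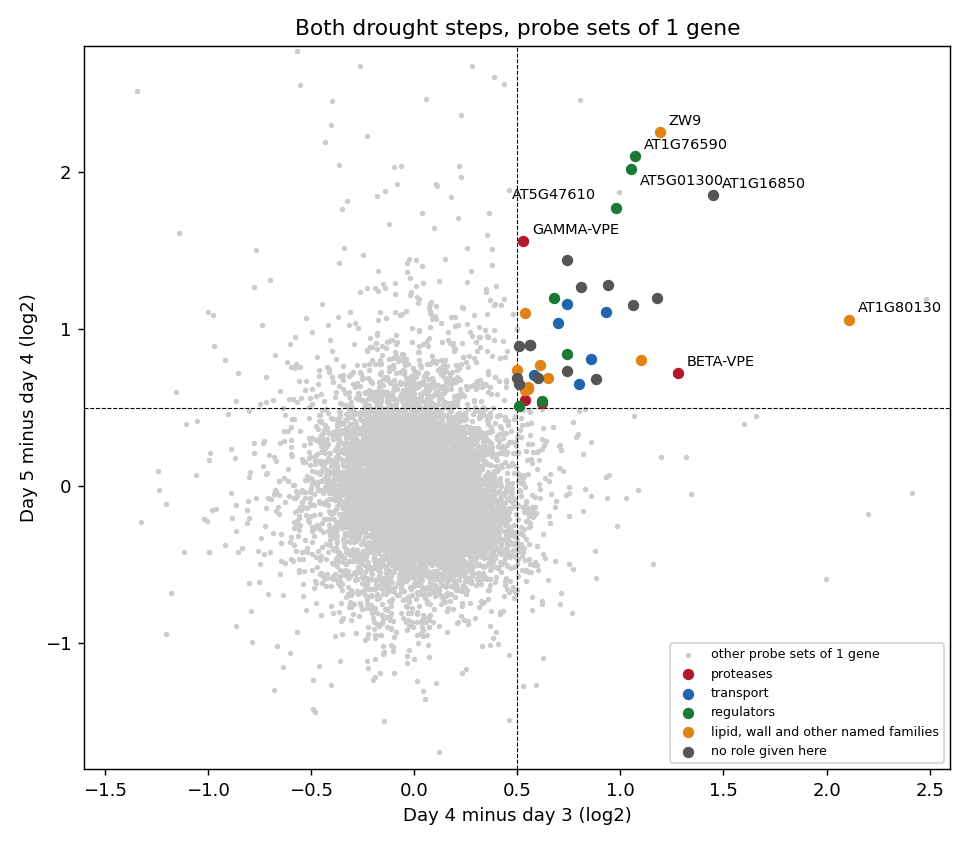
First drought step (day 4 minus day 3, log2, x axis) against second step (day 5 minus day 4, log2, y axis) for probe sets named with 1 gene, with members coloured by role and dashed lines at 0.5. The members fill the upper right corner, AT1G80130 lies farthest along the first step at 2.11 and ZW9 highest on the second at 2.25. Grey points in that corner are genes left out by name or symbol prefix, and points beyond the axes are not drawn.

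The members were grouped by role after their names were known, with family names for genes without a symbol taken from general knowledge. There were 5 proteases, 6 transport genes, 7 genes of regulators, 10 of lipid, wall and other named families, and 13 for which no role is given here.

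Vacuolar processing enzymes are cysteine proteases that mature and degrade proteins inside the vacuole, and 2 of the 5 protease members encode them. GAMMA-VPE (AT4G32940), the form known from vegetative organs and from programmed cell death, stood at 9.34 and 9.09 on day 3, 9.69 and 9.79 on day 4, and 11.26 and 11.34 on day 5. Its day 3 arrays lay farther apart than those of days 4 and 5, and most of its increase came on the second step, which was 2.94-fold after a first step of 1.44-fold. That first step fell below the threshold of 0.5 without replicate 2 of day 3 (0.40) or replicate 2 of day 4 (0.47). BETA-VPE (AT1G62710), known for processing seed storage proteins, stood at 7.0 and 7.04 on day 3, 8.39 and 8.20 on day 4, and 8.99 and 9.04 on day 5. It had the opposite shape, with a first step of 1.28 (SE 0.10) and a second of 0.72 (SE 0.10). From day 3 to day 5 the 2 genes ended with much the same difference, 2.08 for GAMMA-VPE and 2.00 for BETA-VPE. Under the poly-A scaling the steps were 0.59 and 1.01 for GAMMA-VPE, and 1.34 and 0.17 for BETA-VPE.

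The subtilase gene SBT4.13 (AT5G59120), of the family of secreted serine proteases, stood at 9.63 and 10.02 on day 3, 10.16 and 10.62 on day 4, and 11.39 and 11.19 on day 5. Its higher day 3 sample lay just under its lower day 4 sample, and its first step of 0.56 (SE 0.17) did not pass the limma test. The second step was 0.90, and under the poly-A scaling the steps were 0.62 and 0.35. AT5G37540, of the aspartyl protease family, had steps of 0.54 and 0.55, and AT5G22860, a serine carboxypeptidase family gene, had 0.62 and 0.53. AT5G37540 lay just past the threshold on both steps, and AT5G22860 on the second. When the arrays were scaled to the poly-A controls, the second steps of AT5G37540 and AT5G22860 were 0.00 and -0.02.

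Other vacuolar processing enzyme genes and some other subtilase genes, looked up once the members were known, did not all move the same way. The subtilases were not covered as a whole, and no relatives of the aspartyl protease or carboxypeptidase genes were looked up. Among the vacuolar processing enzymes, ALPHA-VPE stayed between 4.38 and 4.80 on all 6 arrays, with a difference of 0.13 from day 3 to day 5 (SE 0.13, limma adjusted p = 0.522) that the poly-A scaling turned to -0.36 (adjusted p = 0.0234). DELTA-VPE, known from the seed coat, stood at 7.52 and 7.19 on day 3, 7.29 and 6.68 on day 4, and 6.66 and 6.36 on day 5. It fell by 0.84 from day 3 to day 5 (SE 0.19, limma adjusted p = 0.00628), and the poly-A scaling gave -1.33. Leaving out replicate 1 of day 3 (adjusted p = 0.069) or replicate 2 of day 5 (adjusted p = 0.0578) ended that call. Among the subtilases, SBT4.12 lay at the dim end, between 3.47 and 3.84, and ATSBT5.2 had a difference of 0.47 (SE 0.17, limma adjusted p = 0.0537), or -0.01 under the poly-A scaling. SBT5.4 was 0.60 higher on day 5 than on day 3 (SE 0.13, limma adjusted p = 0.00531), but by 0.11 (adjusted p = 0.481) under the poly-A scaling, and with an adjusted p of 0.0614 once replicate 2 of day 3 was left out. Whether the changes differ between genes of a family was not tested.

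**Figure D2:**
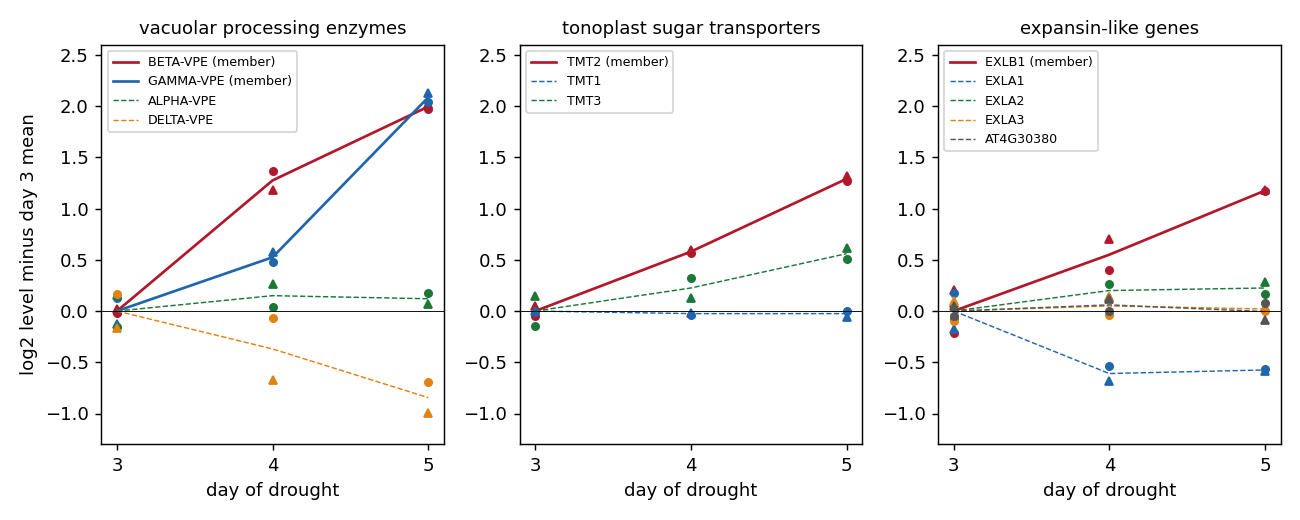
Log2 level minus the gene's own day 3 mean (y axis) on days 3, 4 and 5 of drought (x axis) for vacuolar processing enzyme, tonoplast sugar transporter and expansin-like genes. Circles are replicate 1, triangles replicate 2, lines the mean of the 2 arrays, solid for members and dashed for other genes of the family. BETA-VPE and GAMMA-VPE end at 2.00 and 2.08, while DELTA-VPE ends at -0.84.

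The 6 transport genes had second steps between 0.65 and 1.16, the narrowest span of the 5 groups. TMT2 (AT4G35300), a tonoplast transporter that loads sugars into the vacuole, stood at 8.20 and 8.29 on day 3, 8.81 and 8.84 on day 4, and 9.51 and 9.56 on day 5. In the deposited values each day gained about as much as the last, with steps of 0.58 and 0.71 (SE 0.10 each). The arrays of a day differed by less than 0.10, but under the poly-A scaling the steps were 0.64 and 0.16. Its relative TMT1 stayed between 8.42 and 8.48 on all 6 arrays (log2 change -0.03 from day 3 to day 5, SE 0.10, limma adjusted p = 0.871), and under the poly-A scaling that change was -0.51 (adjusted p = 0.00178). TMT3 was 0.56 higher on day 5 than on day 3 (SE 0.12, limma adjusted p = 0.00605). It missed the threshold once replicate 1 of day 3 (adjusted p = 0.0667) or replicate 2 of day 5 (adjusted p = 0.0529) was left out, and the poly-A scaling gave 0.07 (adjusted p = 0.608).

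AT1G68570, of the NRT1/PTR family of nitrate, peptide and hormone transporters, stood at 10.71 and 10.62 on day 3, 11.45 and 11.59 on day 4, and 12.31 and 12.36 on day 5. The 2 steps were nearly equal, at 0.86 and 0.81, and the days were far apart beside the gap between their arrays. Under the poly-A scaling the steps were 0.92 and 0.26. In the same transporter family, the glucosinolate transporter gene GTR2 was 0.69 higher on day 5 than on day 4 (limma adjusted p = 0.00148, against 0.14 and 0.321 under the poly-A scaling) after a first step of -0.13. Its partner GTR1 had steps of 0.13 and 0.06, and under that scaling its second step was -0.49. No other relatives are given here, so the family was not covered as a whole.

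AT2G41190, of the amino acid transporter family, stood at 7.56 and 7.65 on day 3, 8.37 and 8.70 on day 4, and 9.50 and 9.79 on day 5, a 4.1-fold difference over both steps. AT3G27870, of the P-type ATPases that move lipids across membranes, had steps of 0.74 and 1.16. AT1G23070, of a family of solute-transporter-like membrane proteins, had 0.70 and 1.04. AT1G79520, of the cation efflux family that exports metal ions from the cytosol, had 0.80 and 0.65, and was 1 of 2 transport genes with the larger gain on the first step.

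Genes grouped here as regulators, by family name alone where they lack a symbol, held 3 of the 5 largest second steps. AT1G76590, of the PLATZ family of plant zinc-binding transcription factors, stood at 5.80 and 5.80 on day 3, 6.69 and 7.04 on day 4, and 8.65 and 9.27 on day 5. It gained 2.10-fold on the first step and 4.27-fold on the second, and the 2 day 5 arrays lay 0.62 apart. AT5G01300, of the phosphatidylethanolamine-binding protein family to which the flowering signal FT belongs, stood at 5.58 and 5.70 on day 3, 6.42 and 6.98 on day 4, and 8.40 and 9.03 on day 5. AT5G47610, a RING-type ubiquitin ligase family gene, stood at 5.44 and 5.46 on day 3, 6.23 and 6.63 on day 4, and 8.08 and 8.31 on day 5. In all 3, the second step exceeded the first by more than 1.5 times on the log2 scale, with steps of 1.07 and 2.10, 1.05 and 2.02, and 0.98 and 1.77.

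AT4G27280, a calcium-binding EF-hand protein gene, stood at 7.87 and 7.75 on day 3, 8.55 and 8.43 on day 4, and 9.41 and 9.97 on day 5. Its first step of 0.68 was even between arrays, whereas the day 5 samples lay 0.56 apart. AT5G01200, of the MYB-related transcription factor family, had steps of 0.74 and 0.84. AT2G28200, a C2H2 zinc finger family gene, had steps of 0.51 and 0.51, the smallest gain of the 41 over both steps. JRG21 (AT3G55970), an oxygenase gene induced by jasmonate, had steps of 0.62 and 0.54. Under the poly-A scaling the second steps of AT2G28200 and JRG21 turned to -0.04 and -0.01.

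Among the remaining genes of known families, ZW9 (AT1G58270), of the TRAF-like protein family, had the largest gain of all 41. It stood at 5.06 and 5.28 on day 3, 6.22 and 6.51 on day 4, and 8.22 and 9.0 on day 5, a 10.8-fold difference from day 3 to day 5 (log2 3.44, SE 0.21). By size of that difference it ranked 12 of the 22746 tested probe sets, and its day 5 arrays lay 0.78 apart, the widest day 5 gap of the members. AT1G80130, of the tetratricopeptide repeat family, stood at 7.16 and 7.42 on day 3, 9.40 and 9.40 on day 4, and 10.53 and 10.40 on day 5. It made 66.5% of its log2 gain on the first step, the largest such share, while GAMMA-VPE made 25.3%, the smallest. AT3G28270, of a family of membrane-associated proteins, likewise gained more on the first step, 1.1 against 0.80 on the second.

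TIL (AT5G58070), a lipocalin that protects membranes against heat, cold and oxidation, stood at 9.62 and 9.72 on day 3, 10.18 and 10.25 on day 4, and 10.79 and 10.86 on day 5. The gain was even, at 0.54 and 0.61, and no day's arrays differed by more than 0.10. Under the poly-A scaling the steps of TIL were 0.61 and 0.06. The gene of the plastid lipocalin, CHL, had a difference of -0.26 from day 3 to day 5 (SE 0.11, limma adjusted p = 0.0964, against -0.75 and 0.000141 under the poly-A scaling). AT3G01570, of the oleosins that coat oil bodies, stood at 5.68 and 6.19 on day 3, 6.40 and 6.56 on day 4, and 6.81 and 7.38 on day 5. Its arrays of a day differed by as much as 0.57 and its first step of 0.55 (SE 0.19) did not pass the limma test. AT1G68620, of the alpha/beta hydrolase family, had steps of 0.50 and 0.74.

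EXLB1 (AT4G17030), an expansin-like gene whose relatives loosen cell walls, stood at 6.72 and 7.14 on day 3, 7.33 and 7.63 on day 4, and 8.10 and 8.11 on day 5. Its first step of 0.55 (SE 0.15) did not pass the limma test. The second step was 0.63, and under the poly-A scaling the steps were 0.61 and 0.08. The related EXLA1 was lower on day 4 than on day 3, with a log2 change of -0.61 (SE 0.12, limma adjusted p = 0.0202), and the second step was 0.03. Leaving out replicate 1 of day 3 (adjusted p = 0.176) or replicate 2 of day 4 (adjusted p = 0.116) left the first step short of the threshold, and the poly-A scaling turned the second to -0.52. EXLA2 had a difference of 0.22 from day 3 to day 5 (limma adjusted p = 0.154), which the poly-A scaling turned to -0.27 (adjusted p = 0.0678), and EXLA3 and AT4G30380 lay at the dim end. Of the other wall and stress genes, AT1G53100, of a glycosyltransferase family, had steps of 0.61 and 0.77, AT5G61820, of the Nod19-like family, 0.54 and 1.1, and AT2G28400, of the S40 family of senescence-associated genes, 0.65 and 0.69.

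**Figure D3:**
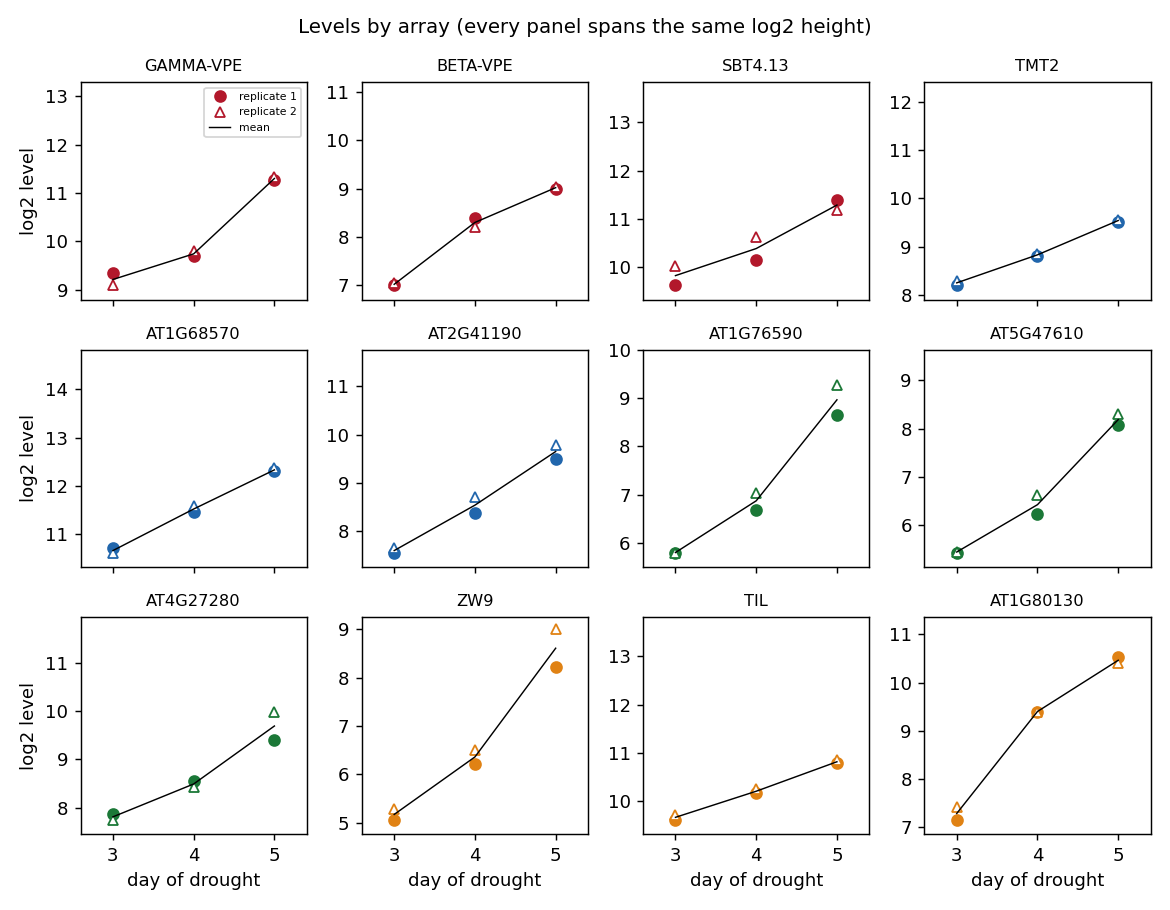
Log2 level by array (y axis) on days 3, 4 and 5 of drought (x axis) for 12 members, with filled circles for replicate 1, open triangles for replicate 2 and a line through the day means. In these deposited values TMT2, TIL and AT1G68570 climb evenly, ZW9 and AT1G76590 steepen after day 4, and AT1G80130 and BETA-VPE gain more on the first step. Under the poly-A scaling, not drawn, the second steps of TMT2, TIL and AT1G68570 were 0.16, 0.06 and 0.26.

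For 13 members no role is given here, and some of the largest gains are among them. AT1G16850 stood at 6.32 and 6.69 on day 3, 7.54 and 8.37 on day 4, and 9.71 and 9.90 on day 5, with a first step of 1.45, exceeded only by AT1G80130, and a second of 1.85. Its day 4 arrays lay 0.83 apart, the widest day 4 gap of the members. AT3G13130 stood at 5.22 and 4.86 on day 3, 6.0 and 6.44 on day 4, and 7.19 and 7.66 on day 5, in steps of 1.18 and 1.20. AT3G03170 had steps of 1.06 and 1.15, and AT5G43150 of 0.94 and 1.28. AT5G50360 gained 0.81 and 1.27, and AT1G11210 gained 0.74 and 1.44, a 4.53-fold difference from day 3 to day 5. The steps were small and even in AT5G64180 (0.74 and 0.73) and AT5G53710 (0.60 and 0.69), and uneven in AT5G18130 (0.56 and 0.90) and AT1G20135 (0.51 and 0.89).

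Of the remaining 3, AT1G66360 had steps of 0.50 and 0.69. AT4G12580 stood at 5.88 and 6.85 on day 3, 7.17 and 7.31 on day 4, and 7.77 and 8.07 on day 5. Its day 3 arrays were 0.97 apart, more than its first step of 0.88 (SE 0.24), and neither step passed the limma test. AT1G80570 stood at 5.11 and 5.26 on day 3, 5.39 and 6.0 on day 4, and 6.21 and 6.49 on day 5, and its first step of 0.51 (SE 0.18) did not pass.

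**Figure D4:**
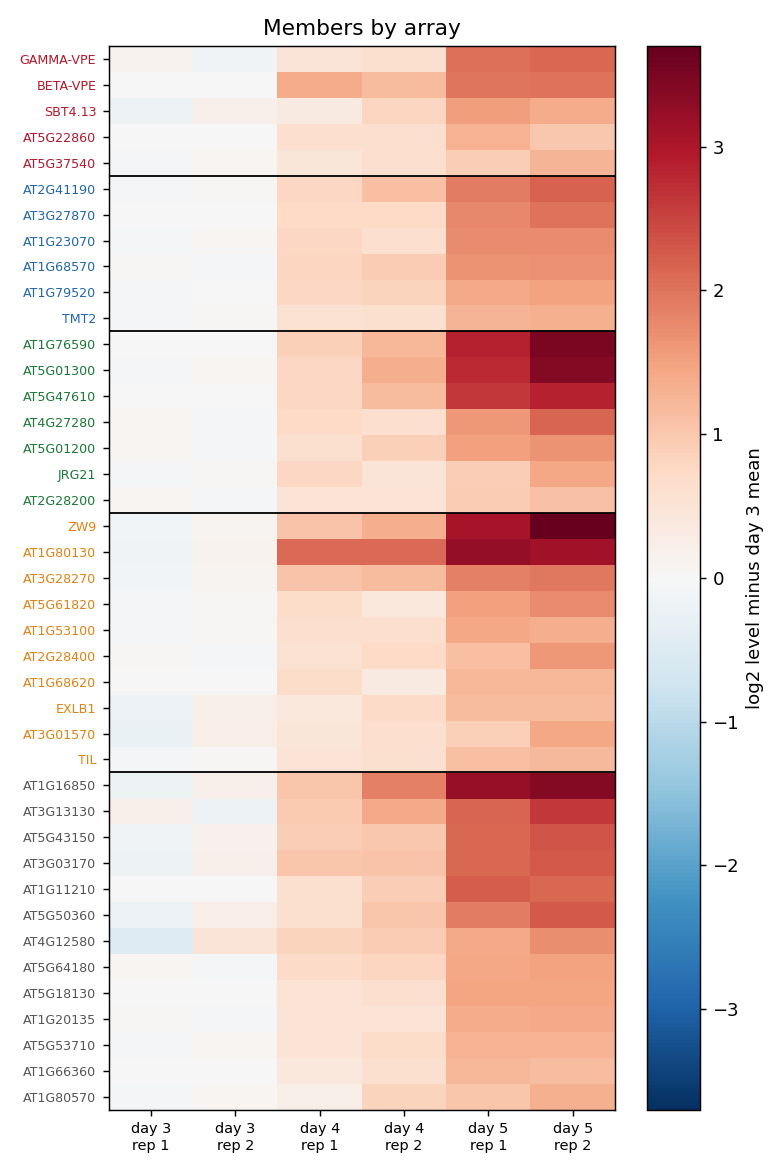
Log2 level minus the day 3 mean (colour) of the 41 members (rows, in the order proteases, transport, regulators, lipid, wall and other named families, no role given, separated by lines) on the 6 arrays (columns). Colour deepens from day 3 to day 5 in every row, most in ZW9, AT1G16850, AT1G80130 and AT1G76590.

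The share of the gain made on each step varied between members. In 31 members the second step was the larger, and in 13 it exceeded the first by more than 1.5 times. In 2 members, AT1G80130 and BETA-VPE, the first exceeded the second by more than 1.5 times, and in 26 the steps lay within 1.5 times of each other. With 2 arrays a day the difference between the steps had a median SE of 0.21 over the members. The rule used these same day means, so the limma calls of this difference are given as counts only. It passed in 1 member with a larger second step, GAMMA-VPE (difference 1.03, SE 0.20), where 3.49% of all probe sets were called, and in 1 with a larger first step, AT1G80130 (difference -1.05, SE 0.20), where 3.39% were. Leaving out replicate 1 of day 4 left 0 members called in limma, with 4 at an unadjusted p under 0.05. Leaving out its replicate 2 left 1, the RING-type gene AT5G47610. The call of GAMMA-VPE also ended when replicate 1 of day 3 was left out, which left AT1G80130 alone, and under the poly-A scaling, which called 11 members. Leaving out replicate 1 of day 5 gave 5 calls, these 2 genes with AT1G76590, AT5G01300 and ZW9. With the poly-A scaling the second step was the larger in 6 of 41, so which step was larger depends on that scaling. The 3 members just inside the threshold were AT1G66360, AT1G68620 and AT1G20135, with first steps of 0.5021, 0.5026 and 0.5051. Just outside lay AT2G44500 with steps of 0.4990 and 0.5067, AT5G50335 with 0.4967 and 0.9990, and AT5G46940 with 0.6188 and 0.4938.

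The rule used the mean of the 2 arrays of a day and not the difference between them. Both are formed from the same 2 values, so the difference is not independent of the choice of members and is described only. In most members it ran the same way, with replicate 2 above replicate 1. Replicate 2 was the higher array in 28 of 41 members on day 3, 31 on day 4 and 33 on day 5, that is in 68.3%, 75.6% and 80.5%. Over all 13467 probe sets open to the rule those shares were 56.1%, 48.2% and 46.3%. In 18 members (43.9%) replicate 2 was higher on all 3 days, against 13.7% of all probe sets, and in 1 member, AT1G68620, it was on none. The median of replicate 2 minus replicate 1 was 0.08 on day 3, 0.13 on day 4 and 0.12 on day 5. The median gap without regard to direction was 0.12, 0.16 and 0.14. In single members the gap could exceed a step, as in AT4G12580 on day 3 and AT1G80570 on day 4.

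The 147 genes that gained at least 0.5 on the first step and stayed within 0.5 on the second had replicate 2 higher in 66.7%, 60.5% and 53.1% on days 3, 4 and 5. For the 582 genes within 0.5 on the first step and at least 0.5 higher on the second, those shares were 42.8%, 48.6% and 68.6%. Replicate 2 was higher on all 3 days in 27.2% of the first set and 16.3% of the second. The labels give the replicates a number and nothing that ties replicate 2 of one day to replicate 2 of another, and genes on the same arrays are not independent of each other, so these shares carry no test.

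**Figure D5:**
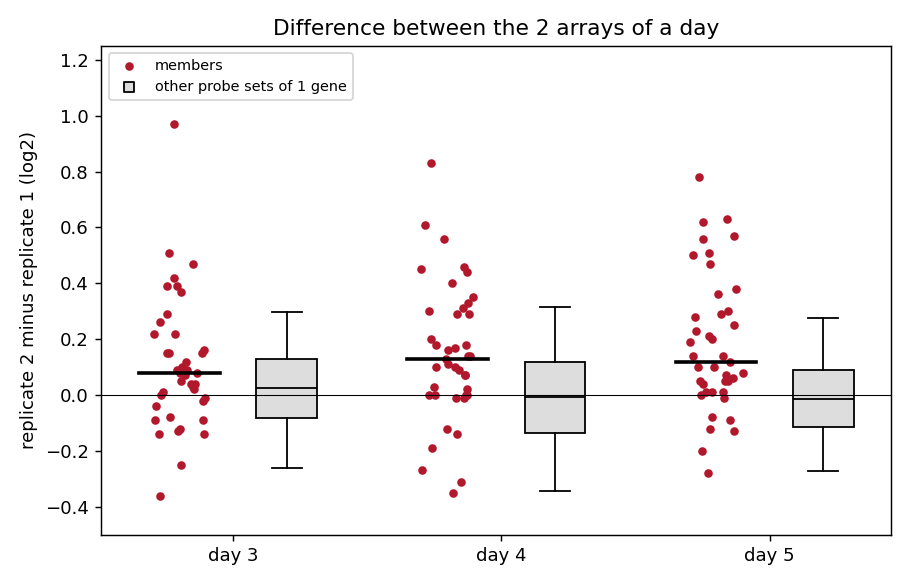
Replicate 2 minus replicate 1 (log2, y axis) within days 3, 4 and 5 (x axis), with members as points, their median as a bar, and the other probe sets of 1 gene as boxes (quartiles, with whiskers at the 5th and 95th percentiles). The members' medians of 0.08, 0.13 and 0.12 lie above 0 on each day, while the boxes straddle it.

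The neighbours of the members on the chromosome were also not used by the rule. All 41 were placed in the gene order of TAIR10.1, and 42 adjacent protein-coding genes, next to 31 of the members, had a probe set named here with that gene alone. None was a member. Of the 42, 7 were higher and 5 lower on day 5 than on day 3 in limma, or 16.7% and 11.9%, where 13.2% and 15.7% of all probe sets were called. Their median difference was -0.01, with a range of -0.91 to 0.54. AT5G59130, next to SBT4.13, was 0.50 higher (adjusted p = 0.0282), and AT5G01210, next to AT5G01200, 0.54 higher (adjusted p = 0.00519). AT1G11220, beside AT1G11210, was lower (log2 change -0.91, adjusted p = 8.63e-05), as was AT5G47600, beside AT5G47610 (log2 change -0.90, adjusted p = 6.73e-05). Under the poly-A scaling the differences of AT5G59130 and AT5G01210 were 0.01 (adjusted p = 0.93) and 0.06 (adjusted p = 0.728).

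No member belonged to the 9 pathway lists written for this tissue and treatment. Of their 105 genes, 16 had a probe set named here with that gene alone, and only these are called measured. The others could not be looked up, whether or not the array holds them, since 8730 probe sets carry no gene name here. With 41 members among the 13467 probe sets open to the rule, so few measured genes could hardly include a member. Nothing is read from that absence. Lists of abscisic acid signalling, drought transcription factors, and proline, raffinose and trehalose metabolism had no gene that could be looked up in this way. They cannot be set beside the members. In the list of dehydration and cold-regulated genes, 3 of 4 measured genes rose from day 3 to day 5 in limma (median 0.81), where 13.2% of all probe sets did. On the first step 1 of 4 rose, where 2.48% did. The fourth gene, COR15B, was not called over the whole span (log2 change -0.14, limma adjusted p = 0.386). Of 6 measured dark-inducible and sugar starvation genes, 3 rose over that span (median 0.32), as did 1 of 2 jasmonate genes and the measured heat and unfolded protein gene, BZIP60, but not the wax gene WSD1. Under the poly-A scaling 2 of the 4 dehydration genes were called higher, where 3.14% of all probe sets were. COR15B was called lower there (-0.63), where 76.8% of all probe sets were. With that scaling the 3 dark-inducible genes MCCA, IVD and ATL8 stood at -0.11, 0.01 and -0.02, the jasmonate gene OPCL1 at -0.08 and BZIP60 at -0.05. Both measured anthocyanin genes rose over the same span, also with that scaling. UF3GT, a glycosyltransferase gene of anthocyanin decoration, came close to the rule with steps of 0.49 and 0.45, and DFR, an anthocyanin synthesis gene, had 0.20 and 0.88.

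Among marker lists of cell types and states that buds can hold, the tapetum and early anther list had lower means on day 5. Its 3 measured genes of 8 averaged 10.11 on both day 3 arrays, no more than 10.15 on day 4 and 9.59 to 9.88 on day 5, and 2 of 3 fell from day 3 to day 5 in limma, where 15.7% of all probe sets did, while AT5G07230 did not pass (log2 change -0.09, adjusted p = 0.673). The late pollen list, 6 measured of 7, averaged 6.65 to 6.67 on day 3, 6.81 to 6.88 on day 4 and 6.84 on day 5, and 2 of 6 rose, AGL65 and ANX2, where 13.2% of all probe sets did. Under the poly-A scaling these 2 turned to -0.07 and -0.04. Of 4 measured leaf photosynthesis genes 2 fell, with means of 12.12 to 12.13 on day 3, 12.07 to 12.13 on day 4 and as low as 11.96 on day 5. Of 6 measured genes of floral organs and the meristem, 1 fell. The 2 measured senescence genes, WRKY53 and SAG101, stayed between 4.23 and 4.87 on all arrays. No seed maturation gene of the list had a probe set named here with it alone. Under the poly-A scaling all 3 tapetum and all 4 leaf photosynthesis genes were called lower in limma, where 76.8% of all probe sets were. So were 4 of the 6 late pollen, 4 of the 6 floral and the 2 senescence genes. AT5G07230 then stood at -0.58. How many genes of these lists fell therefore depends on that scaling. The part of these shifts in the members' values was not tested, and in whole buds more cells of a type cannot be told apart from more RNA per cell.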

How the data were processed

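Total RNA of 6 bud samples, 2 for each of days 3, 4 and 5 of drought, was hybridised to Affymetrix ATH1 arrays. The authors deposited log2 expression values, 1 for each probe set on each array, which the submitters' processing notes credit to RMA and affy (versions not given in the sources used here). Because RMA brings all arrays to one distribution, shifts common to most transcripts are lost. Values ran from 2.98 to 14.74, and precision is limited by the number of arrays.

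Of 22810 probe sets, 64 controls were left out and 22746 tested. The platform annotation supplied gene names: 13513 probe sets carried 1 gene, 503 several and 8730 none here. All 41 members were found in RefSeq's table for TAIR10.1, used for loci, synonyms and gene order. No coordinates are printed, since the array annotation names no build.

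The rule was applied to day means. The 6 arrays were also fitted together with day as the only term in limma 3.58.1 (R 4.3.3), with 3 residual and 8.01 prior degrees of freedom, two-sided p-values and Benjamini-Hochberg adjustment over all tested probe sets at 0.05. The fit was tested on simulated data. SEs are from this fit.

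The members and lists were chosen with earlier results of these data known. Every member is named. Role groups and family relatives were chosen after values were seen. Samples were grouped by their titles. Alternatives were other scalings and filters, other thresholds, each array left out, a prior with trend, the replicate number as a block and a fit of only the days compared. Promoter motifs were not analysed here, as no sequence was in hand.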

Additional observations from a re-analysis of the deposited data

How the results depend on the processing

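The rule gave 76 genes at a threshold of 0.4, 25 at 0.6 and 7 at 1, and 40 to 46 without each array in turn, and 24 of the 41 members met it in all 6 of those leave-one-out settings. Centring, repeated quantile normalization and cyclic loess gave 43, 43 and 46, with 39 members kept under all 3. Scaling to the poly-A controls gave 19, of which 16 were members. With that scaling 19 members passed the limma test on the second step, 11 passed for the difference between steps, and the members' median was 0.29 for day 5 minus day 4 and 1.1 for day 5 minus day 3. The second steps of AT5G22860, JRG21 and AT2G28200 turned to -0.02, -0.01 and -0.04, and every probe set's second step shifts by the same amount there, so the median of all probe sets was -0.60. Without each array in turn, 12 to 35 members passed on the first step, 33 to 41 on the second, all 41 from day 3 to day 5, and 0 to 5 for the difference between steps (4 at an unadjusted p under 0.05 in limma where it was 0). With the replicate block 6 passed for it, and 40, 41 and 41 passed for the first step, the second step and day 5 minus day 3. Differences between same-numbered arrays correlated at 0.06, 0.10 and -0.002 between days over all probe sets, none above 0.1, so the numbers were not taken to pair the samples. The labels do not say whether they mark a shared batch. The members' median changes moved by less than the spread between replicates under the other settings. The fit of only the days compared could not be made for the difference between steps, and the planned promoter windows were not run. Where a cause is not given, the cause was not tested.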

Other observations

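Probe sets without a gene name here held more of the same pattern. Of 8730 such probe sets 75 met both thresholds, and of 503 probe sets with several genes 1 did, so the 41 members were outnumbered by probe sets of the same pattern that carry no single gene name here. In the other direction, 24 of 13467 probe sets of 1 gene dropped by at least 0.5 on both steps. In those 24, replicate 2 was the higher array in 54.2% on day 3, 29.2% on day 4 and 45.8% on day 5, and it was higher on all 3 days in 1 of them. Among the members, the gap between the arrays of a day was widest for AT4G12580 on day 3 (0.97), AT1G16850 on day 4 (0.83) and ZW9 on day 5 (0.78), and in all 3 cases replicate 2 was the higher.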
